A study of Homo sapiens with 12 samples.

Results

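The genes described here encode the proteins of the cytosolic ribosome, the particle that translates messenger RNA in the cytoplasm. They were found by symbol: RPL or RPS and a number, with the suffixes A, X, L, AL or L1, and RPLP0, RPLP1, RPLP2 and RPSA, taking only probes annotated to a single gene. The RPS6K kinases, pseudogenes and Y-linked genes were left out. In all, 76 such genes were measured on either platform, 50 of the large (60S) subunit family and 26 of the small (40S) subunit family, and 59 of them on both. AFFX held 121 probe sets for 60 of the genes, among 54613 probe sets for 19777 genes, and ABI held 131 probes for 75, among 33096 probes for 17192 genes. RPLP0, RPSA, RPS27A and RACK1 were not analysed here.

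The study compared A2780 cells, an established human ovarian carcinoma line, without treatment (control) and after 6 hours in 3 µM of a cell cycle inhibitor that the labels do not name (treated). Each condition was 1 RNA pool, made from 3 cultures and divided into aliquots for 3 AFFX and 3 ABI arrays, so there were 12 arrays in all. The arrays of a group are technical replicates, and every p-value measures the technical spread between them, not the spread between cultures. AFFX signals are the authors' log2 values, and ABI signals are the authors' linear values, turned to log2 here. A change is given as log2(Fold Change), treated minus control, so that 1 is a 2-fold rise.

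Array medians lay between 5.37 and 5.47 (log2) on AFFX and between 1.06 and 1.19 (linear) on ABI, where the mean signal was 26.3 to 28.3 in control and 35.8 to 36.7 in treated arrays. The median of all probes was exceeded, in either group, by 6 of the 11 ovarian epithelial markers measured with AFFX and by 6 of the 10 measured with ABI, with VIM the brightest, while CDH1 and EPCAM were below it on both platforms. Of 10 fibroblast and endothelial markers, 6 on AFFX and 6 (control) or 7 (treated) on ABI were above it, with COL3A1 the brightest. Leukocyte markers were low, with 6 of the 9 measured genes below that median on AFFX and 6 of the 10 on ABI, in either group.

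The large and the small subunit of the human ribosome begin their assembly in the nucleolus, are exported separately and join on an mRNA in the cytoplasm, and their proteins are needed in equal numbers. Their mRNAs are short, long-lived and among the most abundant in a growing cell. Most of them begin with a C and a run of pyrimidines, the 5′ terminal oligopyrimidine (5′ TOP) tract, through which mTOR signalling controls their translation. For 64 of the 76 genes, RefSeq (GRCh38.p14) gave a window of 300 bases around the annotated transcript start. In 41 of the 64 (64.06%) the annotated start was a C followed by at least 4 pyrimidines, against 4.04% of all 27305 windows. Within 10 bases of the start such a tract was found for 84.38% of the members and 33.29% of all windows. At the annotated start itself, 1 of the 6 paralogue genes among them (RPL22L1) had such a tract, as did 40 of the other 58 genes. Within 10 bases of it, 2 of the 6 paralogue genes and 52 of the other 58 had one. The letters CCGGAAG, on either strand, were in 34.38% of the members' windows and 10.67% of all windows, and TATAAA in 9.38% and 11.95%. The start sites of the genes on which the results below turn are shown with 15 bases on each side of the boundary, 5′ to 3′, with the pyrimidine run from the annotated start in capitals:
RPS24 (chr10:78033848-78033877, plus strand): cggcgaatcgtggttCTCTTTTCCTCCTTg
RPL37A (chr2:216498829-216498858, plus strand): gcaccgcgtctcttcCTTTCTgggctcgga
RPS16 (chr19:39435935-39435964, minus strand): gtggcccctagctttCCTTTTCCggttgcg
RPS6 (chr9:19380222-19380251, minus strand): aagcggaagttggccCTCTTTTCCgtggcg
RPL41 (chr12:56116618-56116647, plus strand): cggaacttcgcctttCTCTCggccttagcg
RPL26 (chr17:8383179-8383208, minus strand): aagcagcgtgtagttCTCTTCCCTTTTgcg
RPL26L1 (chr5:172958714-172958743, plus strand): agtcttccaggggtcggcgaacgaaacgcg
RPL22 (chr1:6199581-6199610, minus strand): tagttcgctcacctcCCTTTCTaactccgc
RPL22L1 (chr3:170870181-170870210, minus strand): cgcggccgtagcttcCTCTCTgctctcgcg
RPL36A (chrX:101390996-101391025, plus strand): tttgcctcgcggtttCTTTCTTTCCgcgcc
RPL36AL (chr14:49620612-49620641, minus strand): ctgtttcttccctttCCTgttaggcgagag
RPS27L (chr15:63157463-63157492, minus strand): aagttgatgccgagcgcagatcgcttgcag
RPL7L1 (chr6:42879601-42879630, plus strand): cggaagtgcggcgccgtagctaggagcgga

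RPS24, RPL37A, RPS16, RPS6 and RPL41 all carried a run of 5 or more pyrimidines, whereas RPL26L1, RPS27L and RPL7L1, which are paralogues of RPL26, RPS27 and RPL7, carried none at the annotated start and RPL36AL one of 3. An annotated start is a position in the gene model and was not measured in these cells.

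On AFFX, most ribosomal protein probe sets were slightly brighter in the treated arrays, and a few dim probe sets changed far more than the bright probe sets of the same genes. Treated values were above control values for 112 of 121 probe sets, with a median change of 0.20 beside 0.12 over all probe sets. With limma and an adjusted p under 0.05, 47 rose and 5 fell (38.8% rose, while 23.3% of all probe sets rose and 15.2% fell). Most of these rises were small, since 43 of the 47 were below 1.5-fold. At 1.5-fold or more, 4 rose and 3 fell (1.75% and 8.95% of all probe sets). All 3 treated arrays lay above all 3 control arrays for 82 probe sets and below them for 5 (34% and 17.5% of all probe sets). By gene, 32 of 60 had a probe set that rose, 5 had one that fell (RPS24, RPL37A, RPS16, RPL7L1 and RPS14), and 24 had none that passed. The shares over all genes are not given here, and genes with more probe sets (up to 5) have more chances of a call. The count of 47 fell to 25 without control array 2 and to 30 without treated array 1 or 2, and that of 4 went to 8 without control array 1 and 9 without treated array 3.

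The direction of the small rises depended on the scaling of the arrays. The 18 hybridisation control probe sets, which measure RNA added to every sample, were themselves 0.42 higher in the treated arrays, at 9.88, 9.91 and 9.49 against 9.47, 9.30 and 9.26 in the control arrays, with the lowest treated array next to the highest control array. When the arrays were centred on them, the median change of the ribosomal protein probe sets was -0.22, beside -0.30 over all probe sets. Of the 121 ribosomal protein probe sets 2 rose and 7 fell in place of 47 and 5, while 112 of all 54613 probe sets rose and 14111 fell. Centred on the array medians, the median was 0.14 beside 0.06, and 26 rose and 5 fell, while 8248 of all probe sets rose and 9050 fell.

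**Figure D1:**
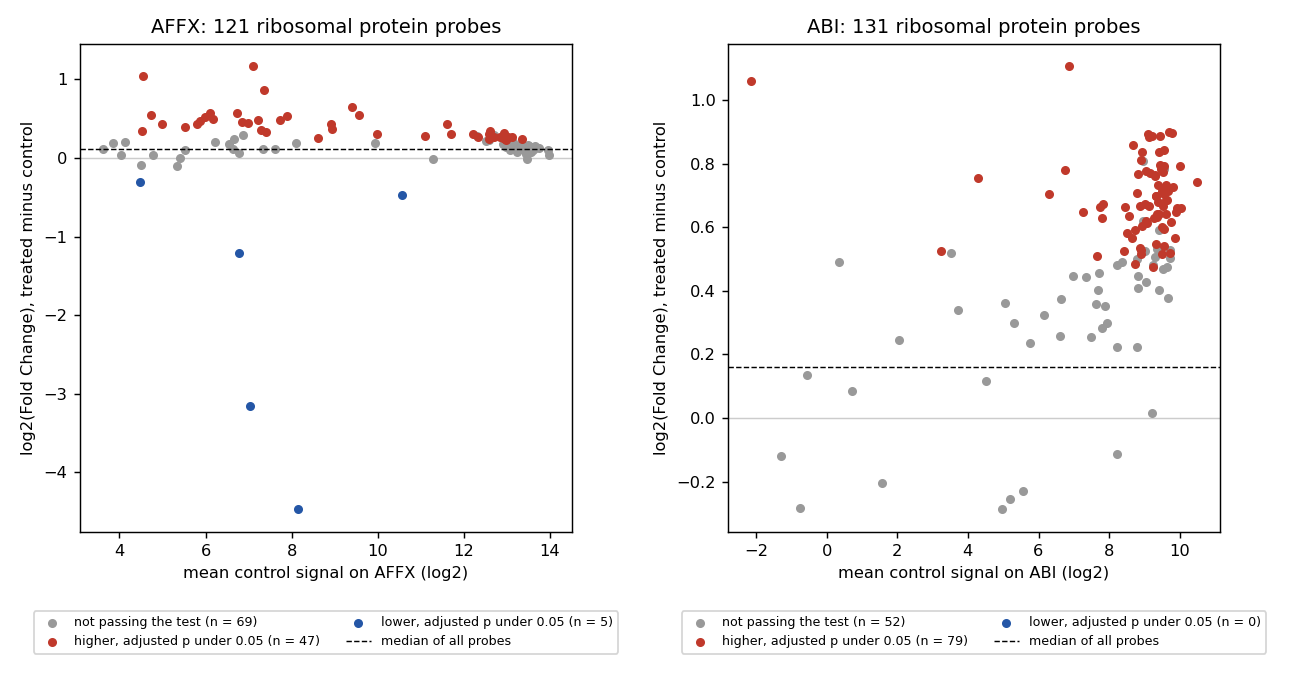
Change of every ribosomal protein probe (y axis, log2(Fold Change), treated minus control) against its mean control signal (x axis, log2) on AFFX and ABI. Each point is a probe, coloured by limma's adjusted p, and the dashed line is the median of all probes of the platform. The bright AFFX probe sets sit just above 0, with the falls among dimmer probe sets, whereas the bright ABI probes sit mostly between 0.4 and 0.9.

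Ribosomal protein mRNAs were near the top of the AFFX signal range: 71 of the 121 probe sets had a mean signal over 11 (log2), in 51 of the 60 genes. Of these bright probe sets 21 rose and none fell, with changes from -0.01 to 0.43 and a median of 0.17. The 857 other bright probe sets of the platform had a median of 0.16, and 36.5% of them rose, against 29.6% of the ribosomal protein ones. The change was smaller where the signal was higher. The 16 ribosomal protein probe sets between 11 and 13 had a median of 0.28 and the 55 above 13 one of 0.15, while the other probe sets in the same ranges had 0.18 and 0.05. Across the 71 probe sets Spearman's rho between change and control signal was -0.74, given as a description, since the probe sets share the same arrays. RPL41, whose product is the smallest ribosomal protein, was at 14.01, 13.98 and 13.95 in the control arrays and 14.02 ± 0.0189 (SD, n = 3) in the treated arrays, which overlap. Its change was 0.03 (SE 0.0774, limma adjusted p = 0.755).

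RPS24, a small subunit protein mutated in Diamond-Blackfan anaemia, had the largest difference in signal of any member. Its probe set 1555878_at read 8.22, 8.21 and 8.04 in the control arrays and 3.51, 3.91 and 3.62 in the treated arrays. The groups lay far apart, and the signal fell by 4.47 on the log2 scale (SE 0.111, limma adjusted p = 2.52e-09). The treated values were below the array medians, and the files hold no detection calls, so this is a difference between signals and no fold change is given. The other AFFX probe set of RPS24 read 13.45, 13.41 and 13.38, then 13.55, 13.67 and 13.48. It was thus a little brighter in each treated array, by 0.15, and did not pass the test (adjusted p = 0.17).

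RPL37A, a zinc-finger protein of the large subunit, had probe sets that changed in opposite directions. Its probe set 213459_at read 7.04 ± 0.212 (SD, n = 3) in control arrays, from 6.85 to 7.27, and 3.52, 3.93 and 4.22 in treated arrays. The signal fell by 3.15 (SE 0.162, limma adjusted p = 1.22e-07), again to below the array medians. Probe set 214041_x_at went from 7.44, 7.43 and 7.23 to 8.21, 8.38 and 8.09, a 1.82-fold rise (0.86, SE 0.102, adjusted p = 7.57e-05), without overlap. The bright probe set of the gene, at 13.95 ± 0.0429 (SD, n = 3) in control and 14.06 ± 0.0444 (n = 3) in treated arrays, changed by 0.11 and did not pass.

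RPS16, which sits near the decoding site of the small subunit, had 4 probe sets. The dimmest of them, 226130_at, fell from 6.77, 6.64 and 6.89 to 5.52, 5.71 and 5.43 (-1.21 on the log2 scale, SE 0.101, limma adjusted p = 4.39e-06). Its treated values lay close to the medians of those arrays (5.42, 5.42 and 5.47), so no fold change is given. The 3 bright ones changed by 0.05, 0.08 and 0.29, and none passed. The fall of the dim probe set was therefore not seen at the others of the same gene.

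RPS6, the small subunit protein phosphorylated by the S6 kinases, showed the opposite. Its dim probe set 211690_at rose from 7.11, 7.20 and 6.99 to 8.22, 8.27 and 8.32, a 2.25-fold rise without overlap (1.17, SE 0.0871, limma adjusted p = 1.84e-06). The 3 bright probe sets changed by 0.10, 0.15 and 0.20 and did not pass. RPS15, a protein of the small subunit head, had a probe set near the bottom of the signal range that read 4.22, 4.62 and 4.77 in control and 5.59, 5.57 and 5.59 in treated arrays. The signal rose by 1.05 (SE 0.127, adjusted p = 8.98e-05) from below the array medians, and the bright probe set of RPS15 changed by 0.15. For RPS21, another small subunit protein, 214097_at rose 1.57-fold, from 9.42, 9.38 and 9.43 to 10.06, 10.05 and 10.04 (0.65, SE 0.0769, adjusted p = 7.88e-05). Its brighter probe set rose by 0.26 (SE 0.0834, adjusted p = 0.0289), so that both RPS21 probe sets rose. Centred on the hybridisation controls, the rises of RPS6 and RPS15 still passed, at 0.75 and 0.63, whereas those of RPS21 (0.23) and RPL37A (0.44) did not.

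**Figure D2:**
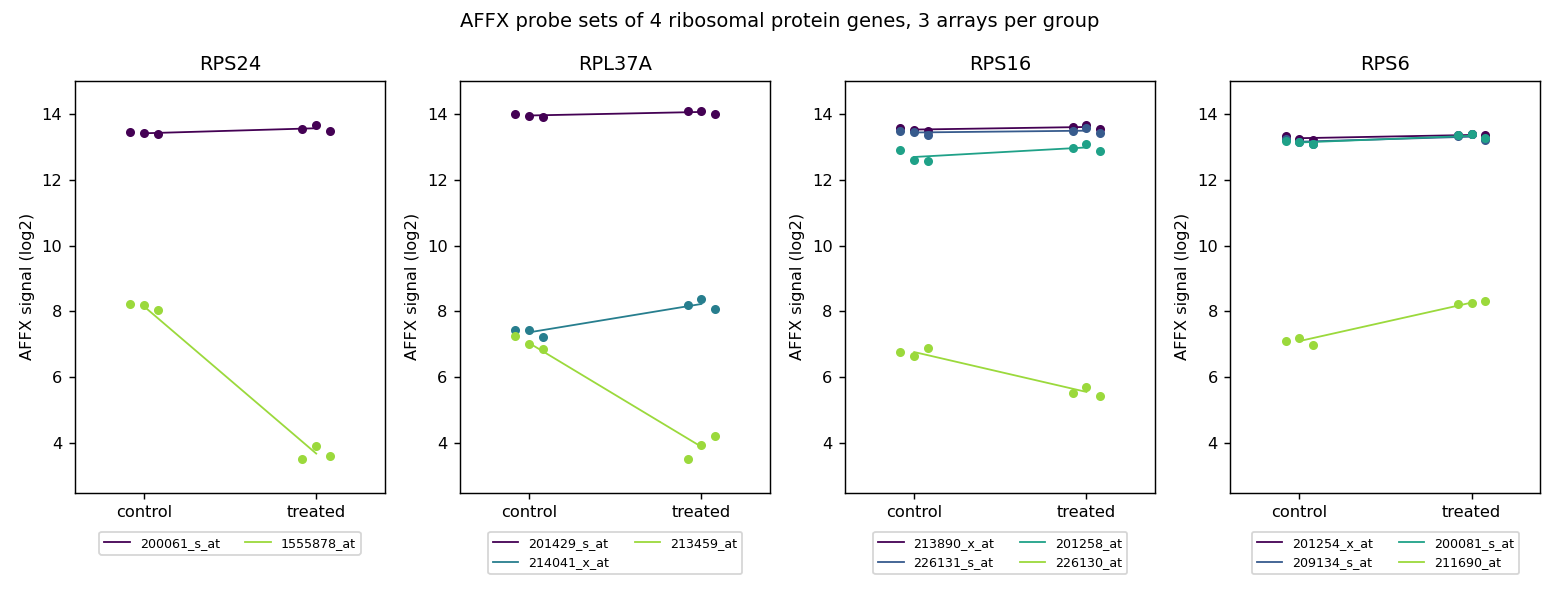
AFFX signal (y axis, log2) of every probe set of RPS24, RPL37A, RPS16 and RPS6 in the 3 control and 3 treated arrays (points); lines join the group means. Bright probe sets near 13 to 14 are almost level, and the dim probe sets fall from 8.15 to 3.68 (RPS24), 7.04 to 3.89 (RPL37A) and 6.77 to 5.56 (RPS16) or rise from 7.10 to 8.27 (RPS6).

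In all, 27 genes had both a bright and a dimmer AFFX probe set. The dimmer probe sets had the larger change in 15 of them, and the medians over these genes were 0.15 for bright and 0.20 for dimmer probe sets. The transcripts that each probe set detects were not mapped here, so whether a dim probe set reads a variant, an unspliced RNA or another transcript was not tested.

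By subunit, 34 of 69 large subunit probe sets rose and 2 fell (median 0.24), and 13 of 52 small subunit probe sets rose and 3 fell (median 0.15), on AFFX. For the acidic stalk, the lateral protrusion that recruits elongation factors (RPLP1, RPLP2 and RPL12 were measured), 4 of 6 probe sets rose and none fell, with a median of 0.27. Among the 4 were both single-gene probe sets of RPLP2, at 5.52 and 4.52 in control arrays, near or below the array medians. A bright RPLP2 probe set, which also names a small nucleolar RNA gene, changed by 0.17 and did not pass (limma adjusted p = 0.109). Of the 5S particle, the complex of RPL5 and RPL11 with 5S rRNA that also binds MDM2, only RPL11 had an AFFX probe set, which rose by 0.26 (SE 0.0825, limma adjusted p = 0.0284). Around the exit tunnel of the nascent chain 8 of 15 probe sets rose and none fell, and along the mRNA channel 1 of 4 rose. For genes mutated in Diamond-Blackfan anaemia 9 of 32 rose and 1 fell, the RPS24 probe set above. The shares for the small subunit (25%), the mRNA channel (25%) and the anaemia genes (28.1%) were near the 23.3% of all probe sets that rose. RPS3, RPS19 and RPS4X, which shape the mRNA entry, the head and the surface of the small subunit, changed by 0.14 (RPS3), by 0.13, 0.17 and 0.20 (RPS19) and by 0.08 and 0.15 (RPS4X), and none of these passed. FAU, which encodes the small subunit protein eS30 under another name, rose from 12.49 to 12.85 (0.35, SE 0.0777, adjusted p = 0.00492).

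A further 46 AFFX probe sets name a ribosomal protein gene together with small nucleolar RNA genes that lie in its introns, for 15 genes, 11 of which had no other probe set here. They were kept out of the counts because they name several genes. Their median change was 0.14, with 6 that rose and 1 that fell. The share that rose was 13%, while 23.3% of all AFFX probe sets rose and 15.2% fell. The 1 that fell was a probe set of RPL10, by 1.97 on the log2 scale (limma adjusted p = 8.7e-08). Of the probe sets here, RPL10 221989_at and the probe set of RPS20 that rose by 1.00 (limma adjusted p = 5.9e-05) were the only ones past 1.5-fold. For RPL10, the bright 200725_x_at rose by 0.24 and 217680_x_at by 0.35 (limma adjusted p = 0.0379 and 0.0108), while 200724_at, at 0.19, did not pass. The RPS20 probe set read 3.82 in control and 4.82 in treated arrays, below the array medians. The bright RPS20 probe sets changed by 0.21 and 0.14 and did not pass.

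On ABI, ribosomal protein probes were higher in the treated arrays as a body, by close to 1.5-fold at the median. Values were higher for 124 of 131 probes, with a median change of 0.59 beside 0.16 over all probes. With limma, 79 rose and none fell (60.3% rose, while 9.78% of all probes rose and 10.8% fell). At 1.5-fold or more, 64 rose and none fell (7.71% and 10.1% of all probes). None fell at an unadjusted p under 0.05 in limma either, while 2 did by the methods' t-test. The treated arrays lay above all control arrays for 117 probes (23.8% of all probes) and below them for 3, the probes of RPL7L1 (17.1% of all probes). By gene, 52 of 75 had a probe that rose. The share over all genes is not given here, and genes with more probes (up to 4) have more chances of such a rise. The count at 1.5-fold is sensitive to that limit, because 51 of the 131 changes lay within 0.1 of it (0.58 on the log2 scale). Both counts rest on all 6 arrays: with one array left out, 17 (without control array 2 or 3) to 29 (without control array 1) probes rose, all past 1.5-fold.

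Bright ABI probes in general moved the same way. Of the 108 ribosomal protein probes with a mean signal over 7 (log2), 75 rose and the median change was 0.63, and the 1585 other bright probes had a median of 0.52 with 829 that rose. Above 9, the 81 ribosomal protein probes had a median of 0.66 and the 516 others one of 0.61. Dimmer ribosomal protein probes changed less, with a median of 0.26 over 23 probes, 4 of which rose. For 13 genes with both kinds of probe, the medians were 0.65 for bright and 0.36 for dimmer probes, and the dimmer probes had the larger change in 2. After quantile normalization of the 6 ABI arrays, which gives all arrays the same distribution of signals, the median change was 0.05 beside 0.09 over all probes. Of the 131 ribosomal protein probes 8 rose and 2 fell in place of 79 and 0, while 3618 of all 33096 probes rose and 3248 fell. Centred on the array medians, the median was 0.62 beside 0.19, and 91 rose and none fell, while 4317 of all probes rose and 3682 fell. The part of array scaling in the ABI rise beyond this was not tested.

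**Figure D3:**
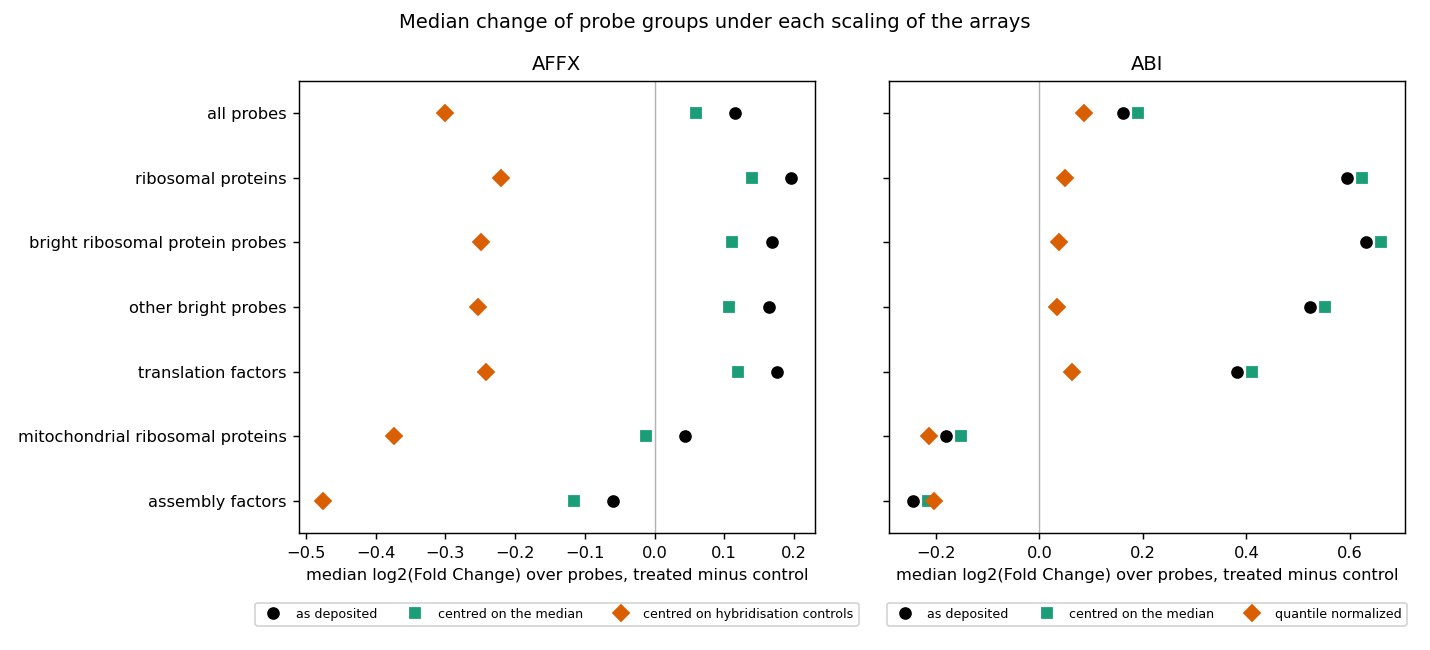
Median log2(Fold Change) between treated and control arrays (x axis) for groups of probes (y axis) under each scaling of the AFFX and ABI arrays. Centring on the hybridisation controls takes the ribosomal protein median on AFFX from 0.20 to -0.22, quantile normalization takes that on ABI from 0.59 to 0.05, and the other bright probes move with it in both.

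The paralogue RPL39L, which replaces RPL39 at the tunnel in some tissues, had the largest ABI rise. Its probe 193239 read 6.89, 6.78 and 6.88 in control and 7.77, 8.20 and 7.90 in treated arrays, without overlap, a 2.15-fold rise (1.11, SE 0.155, limma adjusted p = 0.0082). The brighter RPL39L probe rose by 0.73 (adjusted p = 0.0358). RPL35, a tunnel rim protein, had a very dim probe (111347), at -2.15 ± 0.214 (SD, n = 3) in control and -1.09 ± 0.486 (n = 3) in treated arrays, below the median of all probes in both groups. Its signal was 1.06 higher (SE 0.279, adjusted p = 0.049), with no detection calls to show that it was above background, and the call was lost under 5 of the other settings and without any of 5 of the 6 ABI arrays. The bright RPL35 probe rose by 0.77 (SE 0.141, adjusted p = 0.0184).

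The remaining large rises were of bright probes and lay close together. For RPL26, another tunnel rim protein, probe 217279 rose from 9.80, 9.76 and 9.52 to 10.70, 10.50 and 10.58 (0.90, SE 0.141, limma adjusted p = 0.0116), and probe 183153 rose by 0.84 (adjusted p = 0.0115). RPS15A, a small subunit protein, went from 9.74, 9.85 and 9.76 to 10.71, 10.71 and 10.62 at probe 121943 (0.90, SE 0.115, adjusted p = 0.00623). All of these treated values were above all control values. RPS24 had 4 ABI probes, and all 4 rose, by 0.62, 0.70, 0.70 and 0.89. The largest of them read 9.45, 9.45 and 9.42 in control and 10.22, 10.27 and 10.49 in treated arrays (SE 0.13, adjusted p = 0.00928). No ABI probe of RPS24 thus fell as the dim AFFX probe set had. RPS13 and RPS20, of the small subunit, each rose by 0.89 at their brightest probe, and the large subunit proteins RPL37 and RPL34 by up to 0.88 and 0.86. The largest rise of each of these genes, other than that of RPL39L, did not pass after quantile normalization. There they lay between 0.18 and 0.31 (RPL35 at 0.88). Another of the 4 RPS24 probes, 144140, still passed, at 0.50 (limma adjusted p = 0.0433).

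RPL37A, RPS6 and RPS21, which had AFFX probe sets past 1.5-fold, also rose on ABI. The single RPL37A probe read 9.25, 9.41 and 9.27 in control and 10.21, 10.09 and 9.91 in treated arrays (0.76, SE 0.138, limma adjusted p = 0.0177). Both RPS6 probes rose, by 0.84 and 0.69. The probe of RPS21 rose by 0.67, while those of RPS16 (0.48, adjusted p = 0.0793) and RPS15 (0.45, adjusted p = 0.0765) did not pass. Both platforms were hybridised with the same RNA pools, so they are not independent tests of the treatment.

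By subunit, 45 of 83 large subunit probes rose on ABI (median 0.59) and 34 of 48 small subunit probes (median 0.62). All 4 probes of the stalk genes rose, with a median of 0.71: that of RPLP1 from 10.51, 10.73 and 10.26 to 11.39, 11.14 and 11.19, those of RPLP2 by 0.80 and 0.67, and that of RPL12 by 0.66. In the 5S particle RPL5 rose by 0.70 (adjusted p = 0.0294 in limma), and RPL11, at 0.49, did not pass (adjusted p = 0.0709). Around the tunnel exit 10 of 16 probes rose, along the mRNA channel 4 of 8, and of the anaemia genes 21 of 31. Their shares were 62.5%, 50% and 67.7%, beside 9.78% of all ABI probes. Among the bright ABI probes other than ribosomal protein ones, 52.3% rose, so these shares are not particular to the groups. RPS3 rose at both of its probes, by 0.62 and 0.53, RPS4X by 0.63, and RPS19 at 2 of 3 probes, by 0.49 and 0.58. RPL13A, which also serves in interferon-gamma controlled translation, rose at 1 probe by 0.52 and at the other was 0.22 higher without passing. RPL10, which completes the peptidyl transferase centre late in assembly, was 0.44 higher at its bright probe (adjusted p = 0.1) and -0.12 at a very dim one. FAU rose by 0.63 (SE 0.133, adjusted p = 0.0267).

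The change was compared between the platforms on the brightest probe of each gene. The question is that of the study, whether AFFX and ABI give the same answer on the same RNA. For the 59 shared genes, the medians were 0.17 on AFFX and 0.62 on ABI, and the ABI change was the larger in 55. In a limma interaction over all 16186 shared genes, the ABI change was above the AFFX change for 20 ribosomal protein genes and below it for none (4.7% and 7.04% of all shared genes), and 39 genes did not pass. Without any one AFFX array the count was 10 to 13. The median difference was 0.40 for ribosomal protein genes and -0.05 for all shared genes. With each array centred on the median of the shared genes, the ABI change was above for 31 genes and the median difference was 0.51. The largest difference in value was that of RPL41, 0.75 (SE 0.126, adjusted p = 0.00419). Its AFFX probe set was level, as given above, and lay in the range above 13 where changes were smaller. Whether it was saturated was not tested. On ABI RPL41 read 9.33, 9.57 and 9.49 in control and 10.20, 10.17 and 10.37 in treated arrays. RPS15A and RPS24 differed by 0.73 each (SE 0.107 and 0.13, adjusted p = 0.00206 and 0.00574), and RPS12 by 0.70 (SE 0.173, adjusted p = 0.0272). RPL37A, RPL34, RPS29, RPL30, RPL8 and RPS6 followed, with differences from 0.65 down to 0.59.

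These differences went with the scaling of the arrays. With the ABI arrays quantile normalized, as the AFFX arrays had been, an alternative chosen after the data were seen, no ribosomal protein gene had the larger change on ABI by the same test. The ABI change was then below the AFFX change for 5 of the 59 genes, RPL35A, RPL27A, RPL36AL, RPS9 and RPS28, by 0.42 to 0.63 on the log2 scale. Over all 16186 shared genes the ABI change was above for 1098 and below for 1028. For RPL27A the AFFX side was a dim probe set, at 6.99 in control arrays, with a change of 0.45. The bright AFFX probe set of RPL27A (13.46 in control arrays, change 0.15) also names a small nucleolar RNA gene and was not used. The median difference was -0.15, and the ABI change was the larger in 13 of 59 genes. At the deposited scaling RPL35A differed by 0.03 only (0.35 on AFFX, 0.38 on ABI, 95% interval of the difference -0.28 to 0.33).

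**Figure D4:**
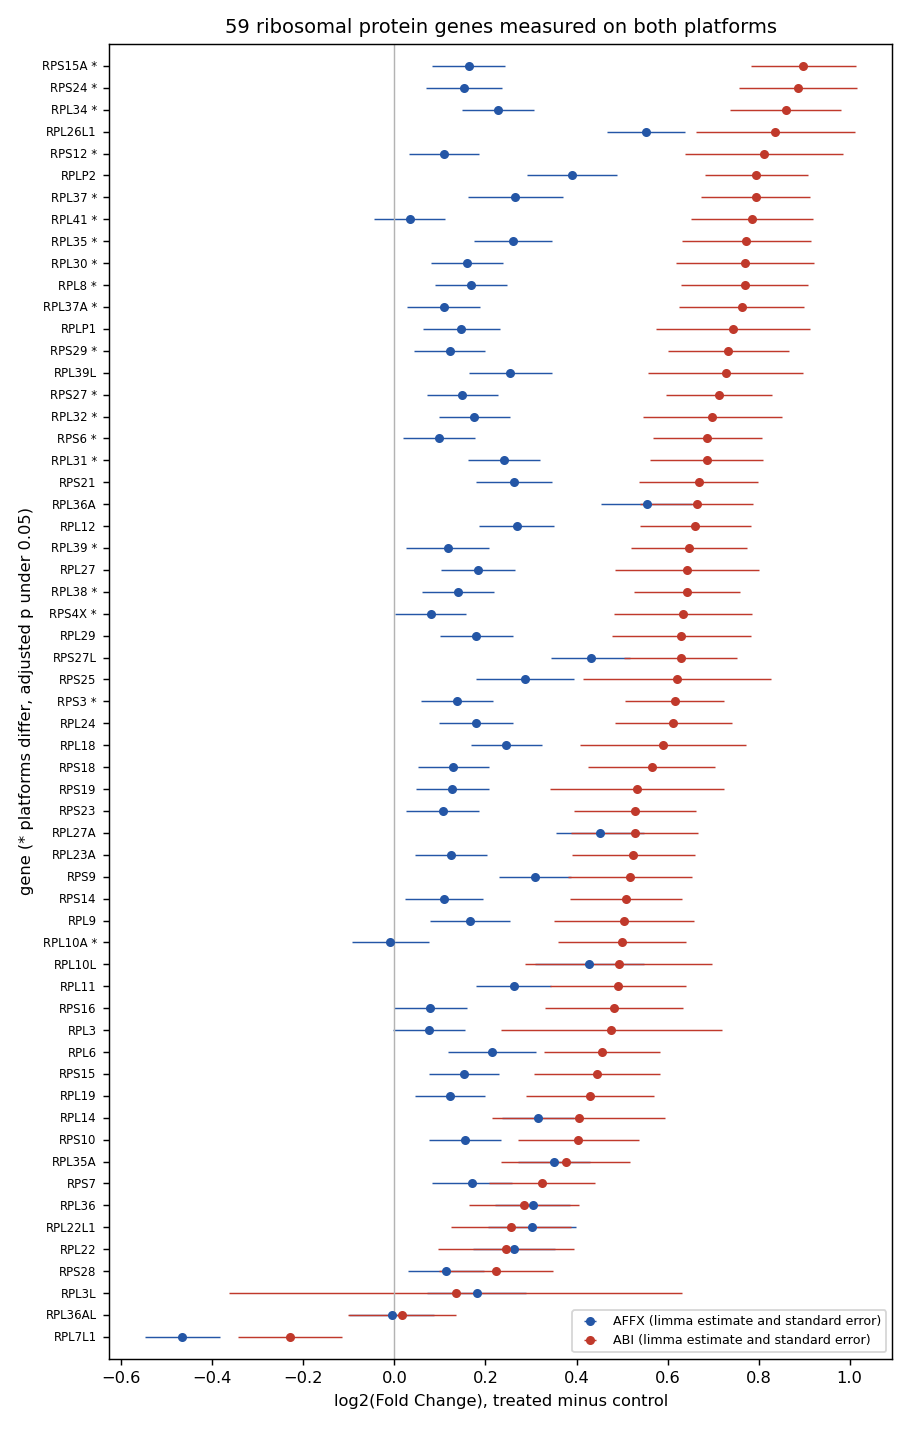
Treated minus control log2(Fold Change) (x axis) at the brightest probe of the 59 ribosomal protein genes on AFFX (blue) and ABI (red), as deposited, with limma standard errors as bars. Most red points lie between 0.4 and 0.9 to the right of blue points between 0 and 0.4; an asterisk marks the 20 genes whose changes differed between the platforms.

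Genes named as paralogues of ribosomal protein genes did not all change in the same direction. Of these, 8 were measured, with 10 AFFX probe sets (7 rose, 1 fell, median 0.37) and 13 ABI probes (4 rose, none fell, median 0.26). The shares that rose were 70% and 30.8%, beside 23.3% of all AFFX probe sets and 9.78% of all ABI probes. Among all probes, 15.2% (AFFX) and 10.8% (ABI) fell. RPL7L1, a paralogue of RPL7 with a role in early large subunit assembly, was the member that was lower at every one of its probes. Its AFFX probe set read 10.64, 10.50 and 10.54 in control and 10.08, 10.15 and 10.06 in treated arrays, without overlap, a fall of 1.38-fold (-0.47, SE 0.0822, limma adjusted p = 0.00135). Its 3 ABI probes changed by -0.23, -0.26 and -0.29, with no overlap between the groups, and none passed (adjusted p from 0.146 to 0.253). By the methods' t-test 2 of them did pass, and with dim probes left out of the fit 1. RPL7 itself, measured on AFFX alone, changed by 0.04, 0.08 and 0.14 and did not pass.

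RPL36AL, a near-identical paralogue of RPL36A on another chromosome, did not rise with the others. On AFFX it read 11.41, 11.22 and 11.21 in control and 11.22, 11.40 and 11.20 in treated arrays (-0.01, 95% interval -0.21 to 0.20). On ABI its brighter probe read 9.21, 9.27 and 9.17, then 9.32, 9.15 and 9.23 (0.02, 95% interval -0.28 to 0.31), and the other changed by -0.11. After quantile normalization both of these probes fell, by 0.54 and 0.55, and they were the only 2 members that did. RPL36A rose by 0.55 on AFFX (SE 0.101, limma adjusted p = 0.00161), at a dim probe set, and by 0.66 on ABI (SE 0.123, adjusted p = 0.0193). The pyrimidine run from the annotated base is 10 long in RPL36A and 3 in RPL36AL, but both have a C and at least 4 pyrimidines within 10 bases of the start.

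RPL22 and its paralogue RPL22L1 changed alike in size. The 5 AFFX probe sets of RPL22 changed by 0.20 to 0.28, and 3 of them rose, and that of RPL22L1 rose by 0.30 (SE 0.0966, limma adjusted p = 0.03). On ABI the changes were 0.24 and 0.26, and neither passed. RPS27L, the paralogue of RPS27, rose at all 3 AFFX probe sets, by 0.43, 0.48 and 0.52, and at its ABI probe by 0.63 (SE 0.124, adjusted p = 0.0229). RPS27 changed by 0.15 and 0.20 on AFFX, without passing, and rose by 0.52, 0.54 and 0.71 on ABI. RPL26L1 rose from 9.64, 9.50 and 9.57 to 10.17, 10.17 and 10.03 on AFFX (0.55, SE 0.0851, adjusted p = 0.000538) and at 1 of 2 ABI probes by 0.84. RPL39L rose by 0.25 on AFFX, and RPL39 by 0.65 on ABI only, with 0.12 on AFFX that did not pass. RPL10L, a testis paralogue of RPL10, was dim on both platforms and rose by 0.43 on AFFX (adjusted p = 0.0165), with 0.49 on ABI (adjusted p = 0.156). RPL3L, the muscle paralogue of RPL3, changed by 0.18 and 0.13 and did not pass. Differences between paralogues and their parent genes were not tested, and near-identical copies can share hybridisation.

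**Figure D5:**
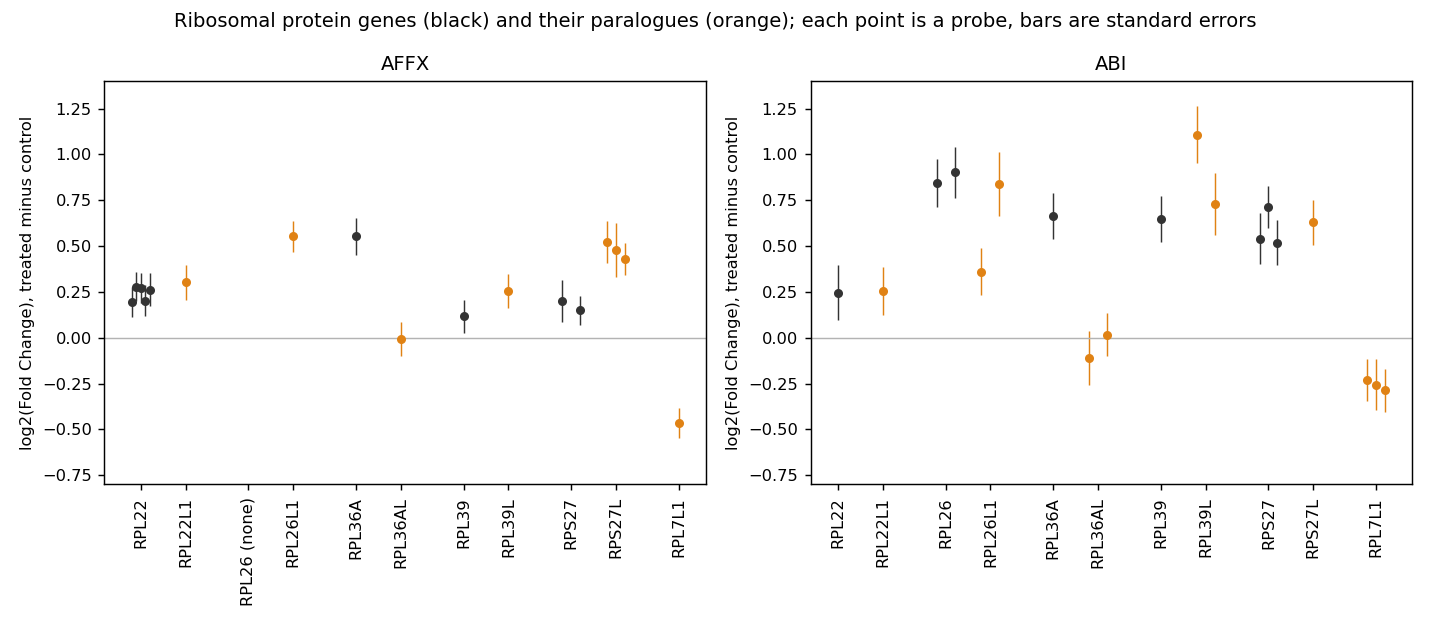
Change of every probe (y axis, log2(Fold Change), treated minus control, with limma standard errors) of ribosomal protein genes (black) and their paralogues (orange) on AFFX and ABI. RPL7L1 is below 0 at all of its probes and RPL36AL is at or near 0, while RPS27L, RPL26L1 and RPL39L are above 0.

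Other genes of the translation machinery were set beside the ribosomal proteins. Among translation factors and related genes whose mRNAs also carry a 5′ TOP tract, 21 of 55 AFFX probe sets rose and 4 fell (median 0.18), and 4 of 26 ABI probes rose and none fell (median 0.38). EEF2, the elongation factor that moves the ribosome along the mRNA, changed by 0.00 and -0.01 on AFFX and by 0.59 on ABI (adjusted p = 0.0506 in limma), and none of its probes passed. The shares to set beside these counts are the 23.3% of all AFFX probe sets that rose and 15.2% that fell, and the 9.78% and 10.8% of all ABI probes. Among ribosome assembly factors more probes fell than rose, and most did not pass. Of their AFFX probe sets 19 of 75 fell and 8 rose (median -0.06), and of their ABI probes 15 of 50 fell and 2 rose (median -0.25). RRS1, which brings the 5S particle into the early large subunit, fell by 1.43 on AFFX (SE 0.127, adjusted p = 7.73e-06) and by 2.37 on ABI (SE 0.145, adjusted p = 0.000832). NOP16, another nucleolar factor, fell by 1.72 and 1.42 at its bright AFFX probe sets and by 1.91 on ABI, while a dim AFFX probe set of it rose by 0.42. Of mitochondrial ribosomal proteins, nuclear genes for the other ribosome of the cell, 37 of 140 AFFX probe sets rose and 35 fell (median 0.04), a share of 26.4% that rose, near that of all probe sets, and 4 of 81 ABI probes rose and 29 fell (median -0.18). The AFFX median of the mitochondrial proteins changed sign with the array medians as centre (-0.01), and the translation factor median was -0.24 with the hybridisation controls as centre, whereas the assembly factor medians were below 0 at every scaling in the plot of medians by scaling.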

How the data were processed

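The AFFX values deposited by the authors are log2 signals from RMA, which includes quantile normalization. The deposited ABI values are linear intensities that the authors had normalized to a global median, with a scale and detection flags not given in the sources used here. ABI intensities were turned to log2 here. For each platform, limma 3.58.1 (R 4.3.3) tested treated against control arrays (2-sided, unpaired, Benjamini-Hochberg over all probes other than 62 AFFX control probe sets). A rise or fall needed an adjusted p under 0.05, and counts past 1.5-fold are given too. The platforms were compared as a limma interaction over the brightest probe per gene. The methods took the probe with the lowest p, which is among the alternatives.

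Genes were named from the platform annotation, and only probes with 1 gene were used (41091 on AFFX, 21089 on ABI). The members and lists were chosen with earlier results of these data known. The genes named are the 10 probes with the largest called changes per platform, genes called in opposite directions, up to 10 genes that differed most between platforms or were called on both, a set of well-known members with the paralogues, and subunits with other names. Examples from the other lists were chosen after their values were seen.

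Samples were grouped by condition from the labels. Replicate numbers were not taken to pair the arrays. Tests were run on simulated data first, with changes given to 200 probes of each size, drawn from all probes of a platform. On AFFX 65.5% of the 1.5-fold, 92.5% of the 2-fold and 100% of the 4-fold changes passed. On ABI 0%, 22.5% and 51% passed, so an ABI probe that did not pass can still have changed. Alternatives were the replicate block, other scalings, a filter on dim probes, other thresholds, the methods' t-test, a pseudocount of 1 on ABI, other probe choices, paralogues left out and each array left out. Start-site sequences came from RefSeq. The number of arrays limits the precision, which was lower on ABI, where the median SE of a change was 0.27 over all probes and 0.14 over members, against 0.10 and 0.08 on AFFX.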

Additional observations from a re-analysis of the deposited data

Results flagged for a closer look

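The change on ABI differed from the change on AFFX for 20 ribosomal protein genes in the limma interaction, with the same contrast on the same RNA pools. The differences, ABI minus AFFX on the log2 scale, were 0.75 for RPL41, 0.73 for RPS15A, 0.73 for RPS24, 0.70 for RPS12, 0.65 for RPL37A, 0.63 for RPL34, 0.61 for RPS29, 0.61 for RPL30, 0.60 for RPL8 and 0.59 for RPS6. For the others they were 0.56 for RPS27, 0.55 for RPS4X, 0.53 for RPL39, 0.53 for RPL37, 0.52 for RPL32, 0.51 for RPL35, 0.51 for RPL10A, 0.50 for RPL38, 0.48 for RPS3 and 0.45 for RPL31. None of the 20 passed in this direction once the ABI arrays were quantile normalized.

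The hybridisation controls, which are in none of the counts of probe sets and served only as an alternative centre for the arrays, were 0.42 higher in treated than in control AFFX arrays. The probe sets naming a ribosomal protein gene with its small nucleolar RNAs had a median change of 0.14.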

How the results depend on the processing

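Many counts moved with the scaling. On AFFX, centring on the array medians left 26 rises (median change 0.14), and centring on the hybridisation controls left 2 rises, both past 1.5-fold, with 5 falls past 1.5-fold and a median of -0.22. Over all AFFX probe sets, 8248 rose and 9050 fell with the array medians as centre. With the hybridisation controls 112 rose and 14111 fell. With array medians as centre the AFFX medians were 0.12 for translation factors (13 rose), -0.12 for assembly factors and -0.013 for mitochondrial proteins, and on ABI 9, 5 and 8 of their probes rose. Quantile normalization of ABI left 8 rises, 4 of them past 1.5-fold, 2 falls and a median of 0.049, and for the platform difference 0 genes above, 5 below and a median of -0.15 (an alternative chosen after the data were seen). Over all ABI probes 3618 then rose and 3248 fell, and over all shared genes 1098 were above and 1028 below. Centring both platforms on the shared genes gave 31 genes and a median of 0.51, and the probe with the lowest p a median of 0.33. Past 2-fold, 2 rose on AFFX and 2 on ABI. By the methods' t-test at an unadjusted p under 0.05, 75 rose on AFFX and 2 fell on ABI, and 2 fell there after adjustment. Without dim probes 1 fell on ABI. Bright ABI members alone, also chosen after the data were seen, had a median of 0.63.

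With the replicate number as a block, which the labels tie to nothing that treated and control arrays share, 1 ABI probe rose (RPS15A), with or without the fold limit, and the platforms differed for 10 genes. The block changed no AFFX count by over 1.5 times. Arrays of the same number deviated from their group means with correlations of 0.075, 0.0040 and 0.33 on AFFX and 0.034, -0.0067 and 0.072 on ABI, and on both platforms treated array 2 correlated best with control array 1.

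With each array left out in turn, 25 to 47 AFFX probe sets rose, 4 to 9 of them past 1.5-fold, 17 to 29 ABI probes rose with or without the fold limit, and the platforms differed for 10 to 19 genes. Such fits have 1 array fewer. For the other changes the cause was not tested. With any one array left out, the medians of the ribosomal protein probes lay between 0.17 and 0.22 on AFFX and between 0.58 and 0.60 on ABI.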
